A study of Mus musculus with 12 samples.

Results

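The nuclear factor I (NFI) family of mouse transcription factor genes, Nfia, Nfib, Nfic and Nfix, was followed in primary cultures from the mouse subventricular zone, a germinal layer that lines the lateral ventricles. The 4 genes were taken by symbol, and all 4 were found among 55401 identifiers and passed the filter on low counts that left 16135 genes. CD1 mice gave 3 groups of 4 libraries each, all wild-type primary cultures as far as the labels say. Postnatal neural stem cells (postnatal NSC) were neurospheres from pups of postnatal day 0 to 2, and adult neural stem cells (adult NSC) were neurospheres from animals of 2 months. Both were kept 6 to 7 days in medium with EGF at 20 ng/mL, FGF at 10 ng/mL and heparin at 2 ug/mL. Postnatal oligodendrocyte precursor cells (postnatal OPC) came from dissociated primary neurospheres that were plated as a monolayer, with FGF and PDGF-AA at 10 ng/mL each, for 2 days. Medium, culture form and cell type changed together between neurospheres and OPC, so that they cannot be told apart.

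NFI proteins bind DNA as dimers, and their recognition site is a palindrome, TTGGC and after a spacer its reverse complement GCCAA, or one side of it. A conserved N-terminal domain binds DNA and pairs the subunits, while the C-terminal parts differ between members and act on transcription. In the developing brain Nfia and Nfib are known for the switch of progenitors from neurons to glia, Nfix for the control of neural stem cell proliferation and quiescence, and Nfic mainly for tooth root formation.

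The coding sequences show why the counts of the 4 genes can be set side by side. A homologous stretch of 60 coding bases, which encodes the same peptide in each gene, is printed from GENCODE M21 (GRCm38), with capitals at bases that differ from Nfix.
Nfix: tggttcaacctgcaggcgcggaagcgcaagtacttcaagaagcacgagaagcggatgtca
Nfic: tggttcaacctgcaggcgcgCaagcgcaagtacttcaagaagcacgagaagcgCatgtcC
Nfib: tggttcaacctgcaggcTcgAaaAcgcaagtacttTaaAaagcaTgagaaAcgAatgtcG
Nfia: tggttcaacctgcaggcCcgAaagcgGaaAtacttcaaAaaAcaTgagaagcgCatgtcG
These coding bases lie at chr8:84772196-84772255 for Nfix, chr10:81420679-81420738 for Nfic and chr4:82498650-82498709 for Nfib, each on the minus strand, and at chr4:97783142-97783201 on the plus strand for Nfia. Within this stretch Nfic differed from Nfix at 3 bases, and Nfia and Nfib each at 9. Over whole coding sequences, aligned bases were 71.8% to 75.9% identical between pairs, and the longest run shared exactly by any pair was 32 bases, in Nfic and Nfix (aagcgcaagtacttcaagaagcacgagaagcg). No stretch of 50 bases was shared between members. Outside the family, 8 of the 7477 stretches of this length in Nfix occurred in transcripts of other genes, 241 in number. None of those in the other 3 genes did.

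Nfia spans chromosome 4 from 97772734 to 98118874 and Nfib the same chromosome from 82290173 to 82705750. Nfic lies on chromosome 10 from 81396186 to 81455635 and Nfix on chromosome 8 from 84699876 to 84800344, all protein-coding genes on GRCm38. Exons of genes on the opposite strand covered at most 1.86% of a member's exon bases, and none lay over those of Nfib.

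Library totals were 38928989 to 54801726 counts for postnatal NSC, 16756231 to 20064043 for adult NSC and 17226501 to 23651396 for OPC. Between the neurosphere groups, sequencing effort thus changed together with age, and the design cannot tell them apart. With counts thinned to equal depth, each member kept its calls. Members had 430 to 17652 counts in a library. Genes of DNA replication were low in postnatal NSC 3 and postnatal OPC 2 (means of 4.77 and 4.47 log2 CPM over 18 genes, against 5.82 to 6.65 in the other 10 libraries). Y-linked transcripts were missing in postnatal NSC 2, postnatal NSC 3 and adult NSC 1. The OPC receptor gene Pdgfra was at 1433 ± 710 CPM in OPC, 230.0 ± 59.6 in postnatal NSC and 12.2 ± 2.98 in adult NSC (mean ± SD, n = 4), and the stem cell filament gene Nes at 745 ± 194, 1534 ± 134 and 2071 ± 83.4 CPM. Both OPC and stem cell markers were thus present in each group, at different levels. In such bulk RNA, fewer cells of a type and less RNA per cell cannot be told apart.

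Nfix was the member with the largest change. Its levels in CPM (read counts scaled to equal normalised library size) were 226, 309.7, 320.0 and 219 in postnatal NSC 1 to 4. Adult NSC 1 to 4 had 161, 157, 158 and 165 CPM, and postnatal OPC 1 to 4 had 141, 118, 115 and 99.2 CPM. No group overlapped another, with postnatal NSC highest and OPC lowest in each library.

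Means of Nfix were 269 ± 53.7, 160.3 ± 3.91 and 118 ± 17.1 CPM (SD, n = 4). It fell 2.27-fold from postnatal NSC to OPC (log2 fold change ± SE of −1.18 ± 0.14; edgeR quasi-likelihood adjusted p = 4.38e-05). This change exceeded in size those of 85.8% of all genes tested. The other called changes of NFI genes, each within its comparison, exceeded only 45.5% to 67.8%. For Nfix, adult NSC were 1.68-fold below postnatal NSC (−0.74 ± 0.14, edgeR quasi-likelihood adjusted p = 0.000864), and OPC were 1.36-fold below adult NSC (−0.44 ± 0.14, edgeR quasi-likelihood adjusted p = 0.0176).

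The spread of Nfix in postnatal NSC came as a pair of high and a pair of low libraries. Postnatal NSC 2 and 3, the high pair, were those without Y-linked transcripts (means of −3.13 and −3.58 log2 CPM over 4 genes, against 5.14 and 4.21 in libraries 1 and 4). Without these and adult NSC 1, the log2 fold change of Nfix was −0.93 for OPC and −0.50 for adult NSC against postnatal NSC, and both remained called (edgeR quasi-likelihood adjusted p = 0.000531 and 0.0203). Without postnatal OPC 4, the library lowest in Nfix, the call for OPC against adult NSC was lost (−0.36, edgeR quasi-likelihood adjusted p = 0.0503, and 0.00455 to 0.0503 over all edgeR settings).

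**Figure D1:**
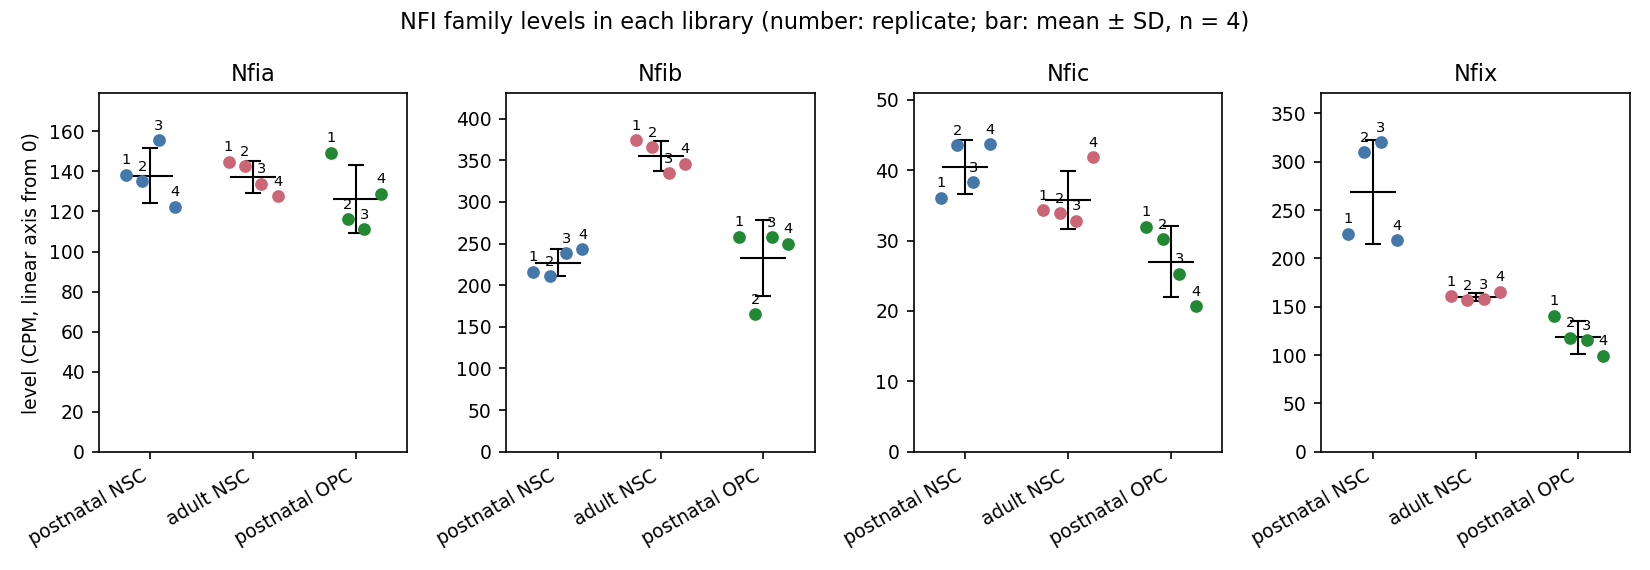
Levels of the 4 NFI genes (CPM, linear axes from 0) by group, 1 point per library with its replicate number, and mean ± SD of 4 libraries. Nfix lies at 219 to 320.0 CPM in postnatal NSC and at 99.2 to 141 in OPC, Nfib stands apart in adult NSC, and the groups of Nfia overlap.

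Nfib had a different pattern and was highest in adult neurospheres. It was at 216, 211, 238 and 243 CPM in postnatal NSC 1 to 4, and at 374, 366, 335 and 346 CPM in adult NSC 1 to 4. In postnatal OPC 1 to 4 it was at 258, 165, 257 and 249.5 CPM. Every adult library lay above every library of the other 2 groups, while the ranges of postnatal NSC and OPC overlapped.

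Nfib was 1.56-fold higher in adult than in postnatal NSC (355 ± 18.0 against 227 ± 16.0 CPM, n = 4 each), a log2 fold change of 0.64 ± 0.13 (edgeR quasi-likelihood adjusted p = 0.00137). Against adult NSC it was 1.53-fold lower in OPC (233 ± 45.3 CPM), a log2 fold change of −0.61 ± 0.13 (edgeR quasi-likelihood adjusted p = 0.00173). Between OPC and postnatal NSC it did not pass the test, with a 95% interval of −0.24 to 0.31 on the log2 scale.

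Postnatal OPC 2, where replication genes were low, had the lowest Nfib of the 12 libraries. Leaving out this library and postnatal NSC 3 gave a log2 fold change of 0.19 between OPC and postnatal NSC where all libraries gave 0.03, and this did not pass (edgeR quasi-likelihood adjusted p = 0.0523, and 0.0523 to 1 over all edgeR settings).

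Nfic was the least abundant member by CPM in every library. It was at 36.1, 43.6, 38.3 and 43.7 CPM in postnatal NSC 1 to 4, at 34.3, 33.9, 32.8 and 41.8 CPM in adult NSC 1 to 4, and at 31.9, 30.2, 25.3 and 20.7 CPM in postnatal OPC 1 to 4. All OPC libraries lay below all neurosphere libraries, whereas both neurosphere groups overlapped.

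From postnatal NSC to OPC, Nfic fell 1.5-fold (40.4 ± 3.84 to 27.03 ± 5.10 CPM, n = 4 each; log2 change of −0.58 ± 0.14 and edgeR quasi-likelihood adjusted p = 0.00456). Against adult NSC the fall was 1.32-fold (−0.40 ± 0.14, edgeR quasi-likelihood adjusted p = 0.0283). That call was lost without adult NSC 4, postnatal OPC 3 or postnatal OPC 4, and without the libraries lacking Y-linked transcripts (log2 fold changes of −0.32, −0.37, −0.29 and −0.42, where edgeR's quasi-likelihood test gave adjusted p values of 0.0881, 0.0662, 0.0703 and 0.0592, and 0.0157 to 0.0881 over all edgeR settings). Adult and postnatal NSC differed by −0.18 in Nfic, with an interval of −0.48 to 0.12, and did not pass.

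Nfia differed least between the groups. It was at 138, 135, 156 and 122 CPM in postnatal NSC 1 to 4, at 145, 143, 134 and 127 CPM in adult NSC 1 to 4, and at 149, 116, 111 and 129 CPM in postnatal OPC 1 to 4. All 3 groups overlapped. No comparison passed for Nfia, and edgeR's quasi-likelihood test gave adjusted p values of 0.34 for OPC against postnatal NSC, 0.957 for adult against postnatal NSC and 0.361 for OPC against adult NSC.

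The 95% interval of its log2 fold change was −0.23 to 0.22 for adult against postnatal NSC, so that changes beyond about this size lie outside the interval. It was −0.35 to 0.10 for OPC against postnatal NSC and −0.34 to 0.11 for OPC against adult NSC.

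**Figure D2:**
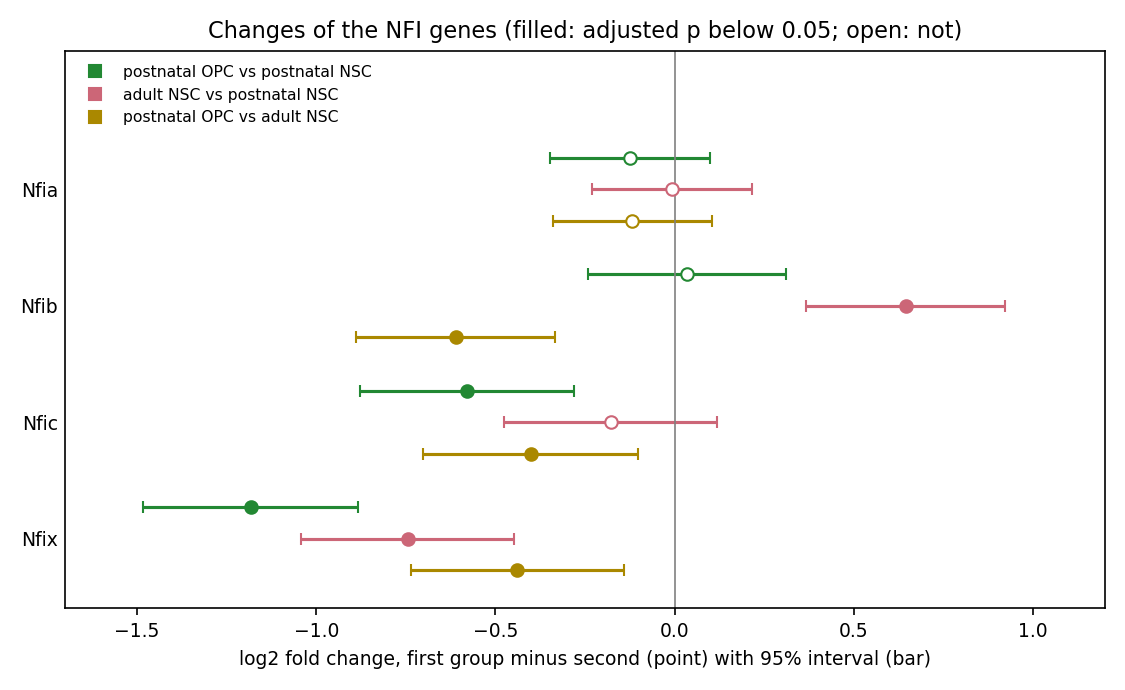
Log2 fold changes of the 4 NFI genes in the 3 comparisons (points) with 95% intervals (bars), filled where the adjusted p was below 0.05. Nfix lies below 0 in all 3 comparisons, Nfib is above 0 in adult against postnatal NSC at 0.64, and each interval of Nfia spans 0.

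Counted over the family, 2 of 4 members fell and none rose in OPC against postnatal NSC (Nfic and Nfix), where 45.1% of all genes tested were called, 22.4% higher and 22.7% lower. In adult against postnatal NSC Nfib rose and Nfix fell, beside a background of 53.1% called, 25.2% higher and 27.9% lower. In OPC against adult NSC 3 fell (Nfib, Nfic and Nfix), beside 51.0% called, 26.3% higher and 24.7% lower; without postnatal OPC 4 this count was 1. These shares lie near the background or rest on 4 genes, and the comparisons share groups, so that the counts do not set the family apart. Members of groups that did not overlap numbered 2, 2 and 3, where 34.9%, 53.2% and 56.6% of all genes tested had groups that did not overlap. The median log2 fold change of the 4 genes was −0.35, −0.09 and −0.42 in the 3 comparisons, in the same order, and that of all genes tested −0.01, −0.03 and 0.01.

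Levels per length, in CPM per kilobase of exon, allow the members to be compared with each other. In postnatal NSC the order was Nfix (36.5 ± 7.31), Nfib (15.2 ± 1.07), Nfia (12.7 ± 1.25) and Nfic (6.10 ± 0.580). The ranges of Nfix and Nfib did not meet there (29.8 to 43.5 against 14.1 to 16.3), nor did those of Nfia and Nfic, while Nfib and Nfia met narrowly (Nfia 11.2 to 14.3). In adult NSC Nfib (23.7 ± 1.201) and Nfix (21.8 ± 0.532) were close and their ranges overlapped, ahead of Nfia (12.6 ± 0.739) and Nfic (5.39 ± 0.621). In OPC Nfix (16.1 ± 2.32) and Nfib (15.5 ± 3.03) overlapped, and Nfia (11.6 ± 1.56) overlapped the low end of both. Nfic (4.08 ± 0.769) was below the others in each group. Among 13173 protein-coding genes tested, Nfix stood at percentile 91.1 of levels per length in postnatal NSC, 82.4 in adult NSC and 77.4 in OPC. Nfic stood near the middle, at percentiles 50.5, 47.3 and 40.2.

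As a share of the family, Nfix was lower and Nfib higher in adult NSC and OPC than in postnatal NSC. The level of Nfib itself rose in adult NSC only, and shares of a sum also rise when another member falls. Nfix held 48.5%, 56.0%, 54.7% and 46.6% of the family's level per length in postnatal NSC 1 to 4. In adult NSC 1 to 4 its share was 33.5%, 33.4%, 35.1% and 35.4%, and in postnatal OPC 1 to 4 it was 34.8%, 37.9%, 33.5% and 29.9%. Every postnatal NSC library lay above all others, and adult NSC and OPC overlapped.

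The share of Nfib ranged from 18.7% to 25.5% among postnatal NSC libraries, from 36.3% to 38.2% among adult ones and from 26.1% to 37.0% among OPC. Nfia held 16.5% to 20.1%, 18.4% to 20.5% and 21.8% to 26.2%, and was highest in OPC although its own level did not pass the test. Nfic stayed between 6.91% and 10.8% in all 12 libraries.

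The sum of the 4 genes was 70.5 ± 8.17 CPM per kilobase in postnatal NSC, 63.5 ± 1.81 in adult NSC and 47.3 ± 5.43 in OPC. All OPC sums (42.3 to 54.9) were below all neurosphere sums, and both neurosphere groups overlapped (63.3 to 79.5 and 61.1 to 65.4). The adult sums thus lay within the postnatal range or just below it, with another balance of members, as the stacked bars show. The ratio of Nfib to Nfix per length was 0.429 ± 0.0971 in postnatal NSC, 1.09 ± 0.0626 in adult NSC and 0.981 ± 0.238 in OPC. Nfib was above Nfix in 0, 4 and 2 of 4 libraries, and with the longest transcript as the length in 0, 4 and 3. By counts without any length Nfib was above Nfix in 1, 4 and 4 libraries.

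**Figure D3:**
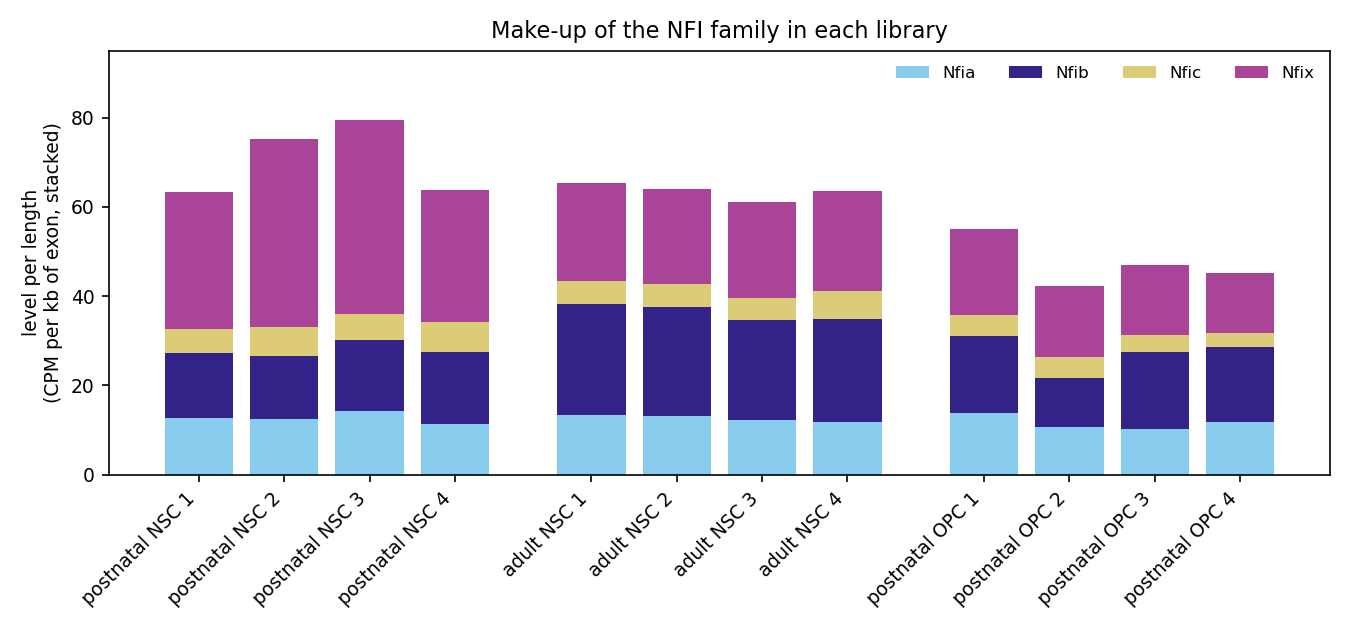
Levels per length of the 4 NFI genes (CPM per kb of exon) stacked for each of the 12 libraries. The Nfix part takes 46.6% to 56.0% of the bar in postnatal NSC and 29.9% to 37.9% in the other groups, and OPC bars are the shortest at 42.3 to 54.9.

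The genes most like each member over the 12 libraries were found by Pearson correlation of log2 CPM among 10734 other protein-coding genes with a mean of at least 5 CPM. The libraries form 3 groups, so that these coefficients mostly describe group levels and carry no test. Fam53b (r = 0.989), Itm2c (0.982) and Acaa2 (0.981), a mitochondrial thiolase gene, were most like Nfix. Fam53b was at 61.7, 36.5 and 25.1 CPM in postnatal NSC, adult NSC and OPC.

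For Nfib they were Kitl (r = 0.978), which encodes the ligand of the KIT receptor, the acyl-CoA synthetase gene Acsl3 (0.970) and Alms1 (0.968). Kitl was at 39.8, 148 and 41.6 CPM in the same order. Nfic was most like the histone methyltransferase gene Dot1l (0.943), the endolysosomal channel gene Tpcn2 (0.942) and C2cd2l (0.940). For Nfia the highest coefficients were lower, at 0.796 for the glial receptor gene Gpr37l1, 0.793 for Fam126a and 0.789 for Retsat.

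Genes linked to NFI in gliogenesis were followed from 2 lists. The first holds 14 astroglial genes, among them reported NFI targets such as Gfap, Fabp7, Apcdd1 and Mmd2. In OPC against postnatal NSC 3 of them rose, 6 fell and 5 did not pass, with a median log2 fold change of −0.43, where 22.4% of all genes tested rose and 22.7% fell. The count of rises is thus near the share over all genes. Apcdd1, an inhibitor of WNT signalling, fell from 109 ± 32.2 to 23.7 ± 4.94 CPM (log2 fold change −2.20 ± 0.25), and the filament gene Gfap from 121 ± 93.9 to 22.9 ± 13.02 CPM (−2.40 ± 0.70). The receptor gene Fgfr3 (−1.38 ± 0.21) and the gap junction gene Gja1 (−1.18 ± 0.20) fell as well. Fabp7, a fatty acid binding protein gene of radial glia, rose from 2247 ± 247 to 4176 ± 785 CPM (0.89 ± 0.13), together with the glutamate transporter gene Slc1a2 (0.98 ± 0.14) and Zcchc24 (0.68 ± 0.08). Another glutamate transporter gene, Slc1a3 (944 ± 238 against 818 ± 125 CPM), and the lipoprotein gene Apoe (610.0 ± 197 against 811 ± 463 CPM) did not pass.

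In adult against postnatal NSC 9 of the 14 fell, none rose and 5 did not pass, with a median of −0.97, beside 27.9% lower and 25.2% higher among all genes tested. The largest falls were those of Apoe (−4.53 ± 0.44), the calcium-binding protein gene S100b (−3.57 ± 0.51), Gfap (−2.83 ± 0.72) and Mmd2 (−2.45 ± 0.33). S100b was near the floor in adult NSC (0.839 ± 0.477 CPM), so that its changes in both comparisons with adult NSC carry less weight. Fabp7 (2798 ± 78.3 CPM in adult NSC) and the folate enzyme gene Aldh1l1 (980.3 ± 42.7 against 1047 ± 237 CPM) did not pass. Without the libraries lacking Y-linked transcripts 6 fell. With DESeq2, with limma voom or with only these 2 groups in the fit, 2 rose and 9 fell. With the replicate block or with Y-linked expression as covariate, 1 rose and 9 fell. OPC against adult NSC had 8 rises and 3 falls, beside 26.3% higher and 24.7% lower among all genes tested, the falls being Gja1 (−1.67 ± 0.20), Aldh1l1 (−1.01 ± 0.22) and Apcdd1 (−0.65 ± 0.24). Apoe (4.12 ± 0.43), S100b (3.38 ± 0.51), the water channel gene Aqp4 (1.79 ± 0.52) and Mmd2 (1.62 ± 0.32) were the largest rises.

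The second list holds 12 regulators and partners, such as Sox9, known to induce Nfia and to act with it, Pou3f2, Zbtb20 and components of Notch signalling. In OPC against postnatal NSC 4 rose, 3 fell and 5 did not pass (median log2 fold change −0.16), beside 22.4% and 22.7% of all genes tested, so that these counts do not set the list apart. The POU factor gene Pou3f2 (1.61 ± 0.17), Sox9 (0.93 ± 0.23), Olig2 (0.77 ± 0.19) and the Notch effector gene Rbpj (0.39 ± 0.13) rose. Notch1 (−0.92 ± 0.16), Pax6 (−0.68 ± 0.17) and Stat3 (−0.29 ± 0.11) fell. The remodeller gene Smarca4 (431 ± 38.9 against 468 ± 32.8 CPM) and Sox10 (190.5 ± 130.1 against 136 ± 70.3 CPM) did not pass. Without the libraries lacking Y-linked transcripts 3 rose and 1 fell.

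In adult against postnatal NSC 3 rose, 4 fell and 5 did not pass (median −0.21), again near the shares over all genes of 25.2% and 27.9%. Zbtb20, a zinc finger factor gene, rose from 82.6 ± 27.4 to 165 ± 27.5 CPM (1.00 ± 0.20), and so did Rbpj (0.85 ± 0.14) and Pou3f2 (0.85 ± 0.17). The Notch target gene Hes5 (−4.65 ± 0.97, with 18.8 to 873 CPM among postnatal libraries), Sox10 (−3.46 ± 0.49), Sox9 (−0.69 ± 0.23) and Pax6 (−0.68 ± 0.17) fell. Olig2 (622 ± 24.7 against 528 ± 167 CPM) and Smarca4 (439 ± 15.1 CPM in adult NSC) did not pass. Without the libraries lacking Y-linked transcripts 2 of these genes fell. OPC against adult NSC had 5 rises, among them Sox10 (3.94 ± 0.50), Hes5 (2.67 ± 0.90), Sox9 (1.62 ± 0.24) and Pou3f2 (0.76 ± 0.17), beside 26.3% of all genes tested, and 3 falls, beside 24.7%, in Zbtb20 (−1.19 ± 0.20), Notch1 (−0.52 ± 0.16) and Rbpj (−0.46 ± 0.13). Leaving out any adult library or postnatal OPC 2 left 3 rises in this comparison. Like Nfib, both Zbtb20 and Rbpj were higher in adult NSC than in both postnatal groups.

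**Figure D4:**
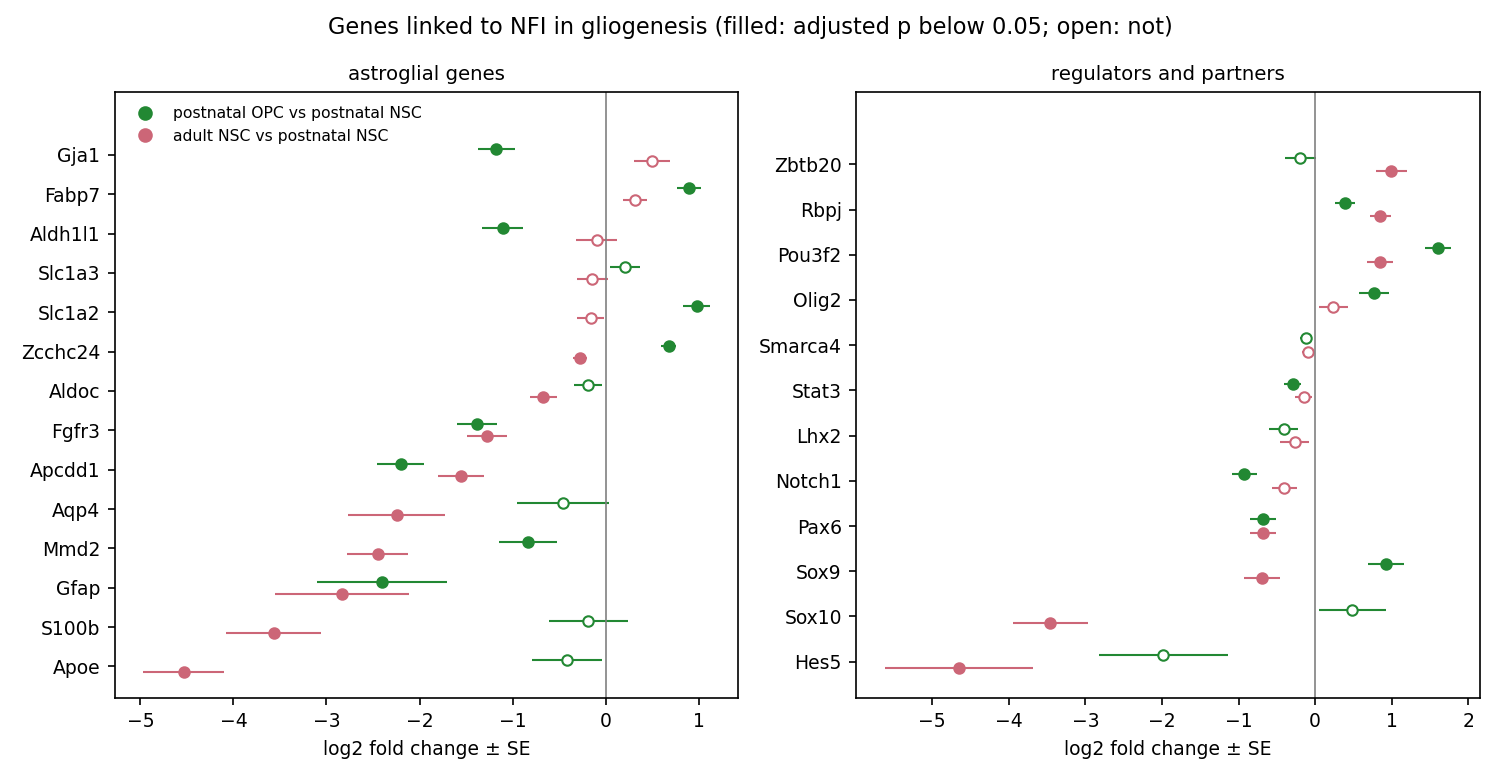
Log2 fold changes ± SE of 14 astroglial genes (left) and 12 regulators and partners (right) for OPC and for adult NSC, each against postnatal NSC, filled where the adjusted p was below 0.05. Astroglial genes in adult NSC reach −4.53 for Apoe, whereas Pou3f2 lies above 0 in both comparisons, at 1.61 and 0.85.

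Among 5 progenitor genes reported as NFI targets, Sox9 rose and the Notch target gene Hes1 fell in OPC against postnatal NSC (49.7 ± 42.1 to 12.0 ± 6.10 CPM, −2.05 ± 0.56), and 3 did not pass. With 22.4% and 22.7% of all genes tested called higher and lower, 1 gene of 5 in each direction is no result about the list. The Polycomb gene Ezh2 (148 ± 21.01 against 132 ± 13.3 CPM) and Bbx (34.7 ± 3.09 against 31.6 ± 2.22 CPM) were among these. Without the libraries lacking Y-linked transcripts none of the 5 fell by edgeR's quasi-likelihood test. In adult against postnatal NSC Bbx rose (0.44 ± 0.10), and Sox9 and Insc, at 0.182 ± 0.0856 and 0.607 ± 0.283 CPM, fell. Insc encodes a regulator of spindle orientation. It was near the floor in adult NSC (0.0563 to 0.247 CPM) and passed the low-count filter only through the postnatal groups. Its calls in both comparisons with adult NSC thus carry little weight. OPC against adult NSC had rises of Sox9 and Insc and a fall of Bbx (−0.31 ± 0.10). The falls of this list in both comparisons with adult NSC depended on single libraries. Without the libraries lacking Y-linked transcripts none was called. Against postnatal NSC, 1 fell without postnatal NSC 2 or 3 or without adult NSC 2, 3 or 4. In OPC against adult NSC, none fell by edgeR's quasi-likelihood test without adult NSC 1 or 3 or without postnatal OPC 1 or 2, and 2 fell without postnatal NSC 1 or 3.

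Promoter windows from RefSeq (GRCm38.p6) were searched on both strands for the recognition site. Each window lies directly upstream of a start site, so that sites farther upstream or downstream of the start were not searched. The listed genes here were 46, from all lists but those of cell type markers, replication genes and Y-linked genes. They include the NFI genes and the myelin genes, and 35 of them had a window. The full palindrome, TTGGC followed after any 5 bases by GCCAA, was found in 0.0365% of 32851 windows and in none of these 35 genes. The shorter form, TTGGC followed after any 5 bases by GCC, which overlaps it, was found in 1.38% of all windows and, among listed genes, in Fabp7 and Pou3f2. Both are shown as 61 bases centred on the match, which is in capitals, since they are the list members that carry this form and both rose in OPC against postnatal NSC.
Fabp7: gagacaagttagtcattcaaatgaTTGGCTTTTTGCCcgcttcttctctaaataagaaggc
Pou3f2: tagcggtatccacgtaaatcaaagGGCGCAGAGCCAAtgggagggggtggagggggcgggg
The first lies at chr10:57784844-57784904 on the plus strand, and its match begins 55 bases before the start site. The second lies at chr4:22488505-22488565 on the minus strand, and its match, 175 bases before the start site, reads on the strand opposite to the gene. The core TTGGC alone occurred in 46.7% of all windows and in 19 of the 35 listed genes. A listed gene counted if any of its windows matched. Counts of genes and shares of windows are therefore different measures and are not compared. A match is a match of letters and shows no binding.

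Markers of other cell types were summed beside these results. Each sum takes all markers of its list, tested or not. Of 6 fibroblast and mural markers 3 passed the filter. The sum of all 6 was 9.42 to 15.7 CPM for postnatal NSC, 4.17 to 7.03 for adult NSC and 0.817 to 9.34 for OPC. The endothelial sum (2 of 5 tested) was 4.63 to 15.7, 14.5 to 15.1 and 2.13 to 3.55 CPM, and the ependymal sum (2 of 5 tested) 37.7 to 50.1, 18.5 to 20.4 and 9.09 to 16.5 CPM. Flt1 and Kdr carried most of the endothelial sum, while Pecam1, Cldn5 and Cdh5 stayed at or below 0.397 CPM in each library. Microglial markers stayed at or below 0.175 CPM in sum, with Cx3cr1 at 0 in all libraries. The ependymal marker Tmem212 was also at 0 throughout. Sums of 6 astrocyte markers, carried mostly by Aldh1l1 and Aldoc, were 1294 to 2345, 1497 to 1598 and 806 to 1361 CPM, and those of 6 neuroblast and neuron markers, 5 of them tested, 51.1 to 161, 17.1 to 27.5 and 73.6 to 229 CPM. Taken singly, 4 of the 6 astrocyte markers were lower in adult than in postnatal NSC, and 3 were higher and 2 lower in OPC than in adult NSC. The ependymal sums followed the order of Nfix over the groups, but nearly all of each sum was Foxj1, a ciliogenesis factor gene, at 40.7, 18.2 and 12.6 CPM. The part of these cell types in the NFI levels was not tested.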

How the data were processed

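RNA of 12 cultures was sequenced from strand-specific mRNA libraries, per the labels. The authors deposited raw read counts per Ensembl gene with the 12 libraries as separate columns and no normalization. The submitters' processing notes name FastQC, STAR, featureCounts 1.22.2 and the build GRCm38. Program settings, annotation release, strand setting and the treatment of multiply mapping reads are not given in the sources used here. Symbols, positions and lengths came from GENCODE M21 on GRCm38, where 55141 of 55401 identifiers were found.

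The counts were scaled by TMM and fitted in edgeR 4.0.16 (R 4.3.3) with the quasi-likelihood test, a term per group and all 12 libraries. The filterByExpr function (minimum count 10, minimum total 15) left 16135 genes. Tests were two-sided, with Benjamini-Hochberg adjustment over these genes, and a call meant an adjusted p under 0.05. Alternatives included DESeq2 1.42.0 and limma 3.58.1. Levels between genes were compared as CPM (a unit computed here from the deposited counts) per kilobase of the union of exons, since longer transcripts give more reads. Log2 CPM used a prior count of 2. Family shares and gene lists were described without a test. The 4 genes and all lists were chosen with earlier results of these data known. Besides the 4 NFI genes, the text names, per list and comparison, up to 4 called genes in each direction with the largest change, up to 2 uncalled genes with the highest level, and the 3 most alike genes per member.

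Same-numbered libraries did not deviate together throughout (correlations of −0.363 to 0.325), so replicate numbers were not used as a block. In OPC against adult NSC, replicates 1, 2 and 3 were each most like the same number, but only weakly (0.110, 0.082 and 0.065). In OPC against postnatal NSC, replicate 4 alone was most like the same number, at 0.325 against 0.306 for the best other number. Replicates are described as independent litters. No pair of libraries within a group agreed within sampling noise. Of the other genes named, Fgfr3, Hes5, Notch1, Stat3, Zbtb20, Aldh1l1, Pdgfra, Slc1a2 and Smarca4 overlap exons of another counted gene. Intervals at 95% cover the spread between libraries, and since the reads carry no molecular identifiers they can include copies. A list of myelin genes is not reported here.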

Additional observations from a re-analysis of the deposited data

Results flagged for a closer look

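Of 24 sets of 4 libraries, a level or a family share of 1 member in 1 group, 4 held a library far from the other 3, where chance gives about 1 in 20. Nfib in postnatal OPC 2 was at 165 CPM, against 249.5 to 258 in the other OPC libraries. Replication genes were also low in that library. Adult NSC 4 accounts for the other 3 sets. Its Nfic level was 41.8 CPM against 32.8 to 34.3, its Nfic share of the family was 9.91% against 7.92% to 8.11%, and its Nfia share was 18.4% against 20.1% to 20.5%. These shares share a denominator, so that they are not separate signs.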

How the results depend on the processing

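Over 23 alternatives (normalization, tool, filter, samples, depth, covariate, and each library left out), the calls of Nfix and Nfic in OPC against postnatal NSC, of Nfib and Nfix in adult against postnatal NSC and of Nfib in OPC against adult NSC were kept. Replicate numbers did not pair the libraries throughout. With the replicate block the log2 fold change of Nfic in OPC against adult NSC was −0.40 (edgeR quasi-likelihood adjusted p = 0.0523), and no other member's call changed. Without the 3 libraries lacking Y-linked transcripts, an alternative chosen after seeing the data, it was −0.42. With 1 library left out it was −0.48 to −0.29, and that of Nfix was −0.53 to −0.36. That same alternative called 4940 genes in adult against postnatal NSC in place of 8569, with fewer samples in the fit. Uncalled values near 0 changed sign. For Nfib in OPC against postnatal NSC the value was −0.0011 without the low-count filter, −0.0027 without the libraries lacking Y-linked transcripts and −0.049 to 0.14 with 1 library left out. For Nfia in adult against postnatal NSC it was 0.038 with Y-linked expression as covariate, 0.045 without both libraries low in replication genes, 0.023 without those lacking Y-linked transcripts and −0.10 to 0.054 with 1 library left out. Family shares depend on the length used, by construction. With the longest transcript, the shares in postnatal NSC, adult NSC and OPC were 15.3%, 16.3% and 20.5% for Nfia, 26.5%, 44.1% and 39.3% for Nfib and 6.89%, 6.48% and 6.74% for Nfic, and 33.2% for Nfix in adult NSC. By counts alone they were 33.9%, 51.6% and 45.9% for Nfib, 6.04%, 5.196% and 5.41% for Nfic and 39.6%, 23.3% and 23.6% for Nfix, and 20.5% for Nfia in postnatal NSC. Under each length the Nfix share was highest in postnatal NSC.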

Other observations

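Of the neuronal genes reported as NFI targets, 4 of 5 were tested, and Gabra6, a GABA receptor gene of cerebellar granule cells, had no count in any library. The ephrin receptor gene Ephb1 was at 27.7 ± 1.83 CPM in postnatal NSC, 13.2 ± 0.959 in adult NSC and 14.1 ± 1.90 in OPC, and fell in both comparisons with postnatal NSC (log2 fold changes of −1.07 ± 0.11 and −0.97 ± 0.11). The cadherin gene Cdh2 rose in adult against postnatal NSC (0.28 ± 0.08), a call lost without postnatal NSC 2 or 4, without the libraries lacking Y-linked transcripts or without the low-count filter, and Wnt7a and Cntn2 did not pass in any comparison.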
